A study of Selenicereus undatus with 4 samples.

Results

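The 6 genes examined here are unigenes of the pitaya that carry names of MADS-box floral organ identity genes of classes C, D and E. They were taken by identifier from the 11051 genes that the authors listed as differentially expressed between L2 and NL, after their levels in these stages had been seen. Unigene0027919 is annotated as floral homeotic protein AGAMOUS isoform X2, Unigene0003257 as AGL11, Unigene0047374 and Unigene0047379 as MADS-box protein CMB1, and Unigene0021927 and Unigene0023390 as AGL9 homolog isoforms X1 and X2. All 6 names come from matches to sugar beet (Beta vulgaris), so the organ classes used here are those of the annotation. The plants were 1-year-old red-fleshed pitaya of the cultivar Jindu No.1, a climbing cactus, and a short piece of stem bearing the thorn seat was sampled. The study also states that sampling was matched by eye to take buds of like size at a stage. How much bud tissue the L2 pieces held is not given. L2 plants had received supplementary light at night and were taken 1 week after the bud stage, whereas NL plants had no supplementary light and did not flower. Each stage had 3 libraries under 1 sample record. The study describes its replicates as biological and as mixtures of several plants, which the labels do not state. Light and bud development differ together between L2 and NL and cannot be told apart here. The L0 and L1 stages were not analysed here.

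MADS-box proteins bind DNA as dimers and larger complexes, and in the flower their combination sets which organ forms. Class C proteins such as AGAMOUS specify stamens and carpels and end the growth of the floral meristem, and class D proteins such as AGL11 specify ovules. Class E proteins, which include the SEPALLATA group with AGL9 (SEPALLATA3) in Arabidopsis and CMB1 in carnation, join the complexes of the other classes and are needed in every whorl. These functions are known from other species.

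Each member was higher in every L2 library than in every NL library, as were 62.0% of the listed genes. By summed level, the 6 genes reached 209, 213 and 254 RPKM (reads per kilobase of unigene, scaled to the library total) in L2 replicates 1, 2 and 3, against 0, 9.69 and 7.50 RPKM in NL replicates 1, 2 and 3. The sum in the lowest L2 library was thus far above that in the highest NL library. Most of the sum in L2 came from a CMB1 unigene and from AGAMOUS. In limma on log2(RPKM + 0.1), 6 of 6 members passed an adjusted p of 0.05 as higher in L2, as did 63.0% of the listed genes. In edgeR 6 of 6 passed as higher both with TMM factors, beside 38.6% of the listed genes, and with library totals, beside 63.4%. The table holds only genes called in this contrast, and the members were chosen with their values in it known, so the counts describe the members and no test of a member is given. The median log2 change of the members in limma was 6.05, against 1.43 over all listed genes. With log2 ratios of mean RPKM, and a floor of 3 reads over a stage without reads, these medians were 5.08 and 1.44. Every member was 0 in NL replicate 1, so its limma change depends on the pseudocount and can exceed the log2 of its ratio. Since the samples are whole pieces of tissue, fewer cells of a type and less RNA per cell cannot be told apart.

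**Figure D1:**
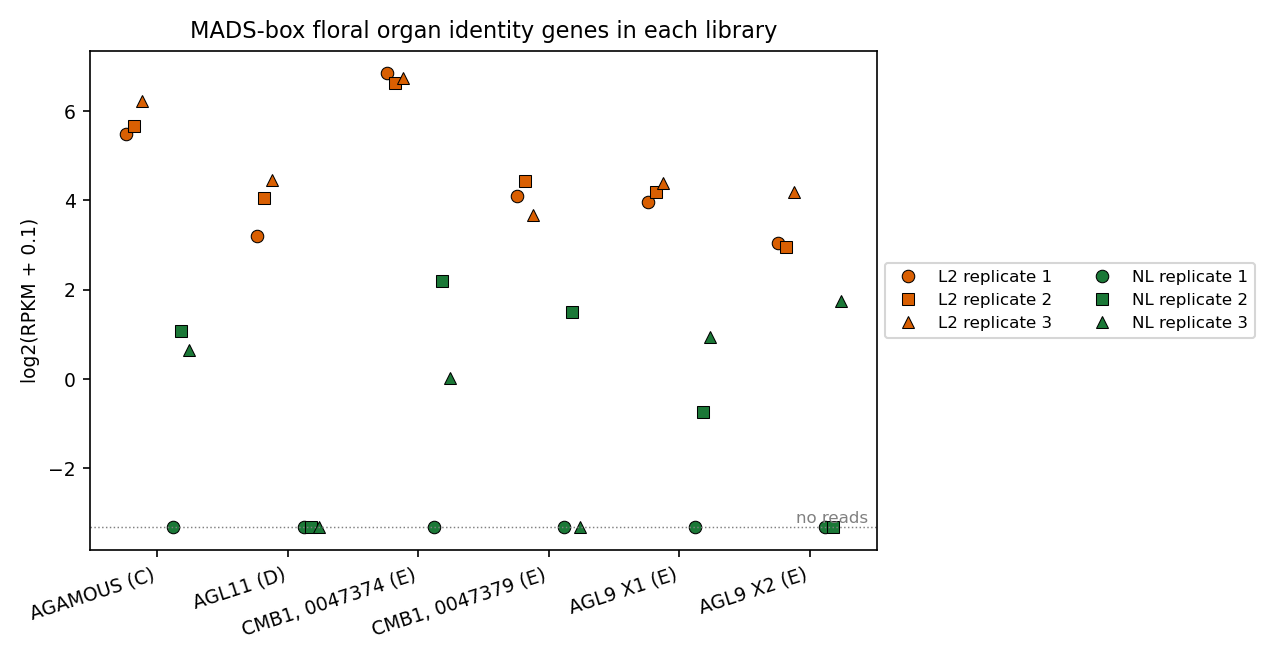
Level of each of the 6 unigenes as log2(RPKM + 0.1) in the 3 L2 libraries (orange) and the 3 NL libraries (green), with the organ class in brackets and 1 symbol per replicate number; the dotted line marks values without reads. All L2 points lie above all NL points of the same gene, and every NL replicate 1 point lies on the line.

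The class C gene was the second most abundant of the members. Unigene0027919 (AGAMOUS, 1286 nt) had 44.5, 50.4 and 74.8 RPKM in L2 replicates 1, 2 and 3, against 0, 2.01 and 1.48 RPKM in NL replicates 1, 2 and 3. All L2 libraries were high, L2 replicate 3 the most, and the stages did not overlap. The mean was 56.6 ± 16.1 RPKM in L2 and 1.16 ± 1.04 RPKM in NL (SD, n = 3 each), a ratio of 48.6. Computed from reads over library totals, the 95% exact (Clopper-Pearson) interval of the ratio was 26.3 to 102, which covers counting error only and counts a pair of reads as 1 molecule. The log2 change in limma was 6.32 (standard error 1.05). Without NL replicate 2 the ratio of mean RPKM was 76.7.

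The class D gene was the member without any read in NL. Unigene0003257 (AGL11) had 9.05, 16.6 and 21.7 RPKM in L2 replicates 1, 2 and 3, from 73, 103 and 135 reads, and 0 in all 3 NL libraries. It varied more between the L2 libraries than AGAMOUS, with L2 replicate 1 the lowest and L2 replicate 3 the highest. Its mean was 15.8 ± 6.36 RPKM (SD, n = 3) in L2. Against a floor of 3 reads over the NL stage, equal to 0.205 RPKM on this unigene, it was at least 74.0-fold higher in L2 by summed reads over library totals, and at least 45.4-fold without NL replicate 3, the deepest NL library. This floor is a set value, neither a limit of detection nor a confidence bound, and it counts single reads rather than pairs. Each level given here as at least so many fold higher is relative to such a floor.

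Among the class E genes, the longer CMB1 unigene was the most abundant member. Unigene0047374 (CMB1, 1454 nt) had 115, 98.5 and 106 RPKM in L2 replicates 1, 2 and 3, against 0, 4.45 and 0.914 RPKM in NL replicates 1, 2 and 3. Its L2 libraries lay closest together among the members, with a coefficient of variation of 7.57%. The mean was 106 ± 8.05 RPKM in L2 and 1.79 ± 2.35 RPKM in NL (SD, n = 3 each), a ratio of 59.5, and the 95% exact interval from reads was 40.8 to 117. The NL mean rested on NL replicate 2, which held 25 of 32 reads, and without that library the ratio was 233. The log2 change in limma was 7.10 (standard error 1.17).

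The other CMB1 unigene was less abundant and had a different order of the L2 libraries. Unigene0047379 (CMB1, 856 nt) had 17.1, 21.5 and 12.7 RPKM in L2 replicates 1, 2 and 3, against 0, 2.72 and 0 RPKM in NL replicates 1, 2 and 3. It was lowest in L2 replicate 3, the library in which AGAMOUS, AGL11 and both AGL9 unigenes were highest. The mean was 17.1 ± 4.43 RPKM in L2 and 0.908 ± 1.57 RPKM in NL (SD, n = 3 each), a ratio of 18.8 with a 95% exact interval from reads of 9.54 to 92.9. NL replicate 2 held all 9 NL reads, and leaving it out gave at least a 47.8-fold higher level in L2 against the floor of 3 reads over the other NL libraries. In the L2 libraries the longer unigene exceeded it 6.72-, 4.57- and 8.37-fold. Both unigenes share an annotation, so the split of reads between them is uncertain where a read fits both.

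The AGL9 unigenes were of lower abundance. Unigene0021927 (AGL9 homolog isoform X1, 1040 nt) had 15.4, 18.2 and 20.9 RPKM in L2 replicates 1, 2 and 3, against 0, 0.498 and 1.82 RPKM in NL replicates 1, 2 and 3. The L2 libraries were close to each other and clearly separated from NL. The mean was 18.2 ± 2.71 RPKM in L2 and 0.774 ± 0.943 RPKM in NL (SD, n = 3 each), a ratio of 23.5 with a 95% exact interval from reads of 9.54 to 58.5. Of its 12 NL reads 10 came from NL replicate 3, and without that library the ratio was 73.0, with an interval of 13.8 to 3099.

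Unigene0023390 (AGL9 homolog isoform X2, 809 nt) had the smallest ratio of the members. Its level was 8.20, 7.67 and 18.1 RPKM in L2 replicates 1, 2 and 3, against 0, 0 and 3.28 RPKM in NL replicates 1, 2 and 3. In L2 replicate 3 it was 2.36 times its lowest L2 level, and its coefficient of variation of 51.8% in L2 was the largest of the members. The mean was 11.3 ± 5.87 RPKM in L2 and 1.09 ± 1.90 RPKM in NL (SD, n = 3 each), a ratio of 10.3 with a 95% exact interval from reads of 4.03 to 22.2. NL replicate 3 held all 14 NL reads, and leaving it out gave at least a 25.0-fold higher level in L2 against the floor. With DESeq2's size factors 4 of 6 members passed as higher in L2, beside 25.2% of the listed genes, and those that did not pass were Unigene0047379 and Unigene0023390. These size factors, like the TMM factors, were computed from the listed genes alone, all of them called in this contrast.

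The NL reads of the members came from 2 of the 3 libraries. NL replicate 1 had no read on any of the 6 genes, while NL replicate 2 had 46 reads on 4 members and NL replicate 3 had 41 reads on 4 members. NL replicate 1 was not the shallowest library, with 4532055 reads in all, against 3860701 in NL replicate 2 and 5269237 in NL replicate 3. Of the listed genes 86.1% had reads in it, against 85.3% in NL replicate 2 and 86.8% in NL replicate 3. Among listed genes with a limma change above 0, these shares were 78.2%, 77.1% and 79.4% in NL replicates 1, 2 and 3. Why the members had no reads in NL replicate 1 was not tested. Of the 15 other MADS-box genes in the table, 10 had reads in all 3 NL libraries and 2 had none in any. NL replicates 2 and 3 also differed from each other, since Unigene0047379 was found only in NL replicate 2 and Unigene0023390 only in NL replicate 3.

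**Figure D2:**
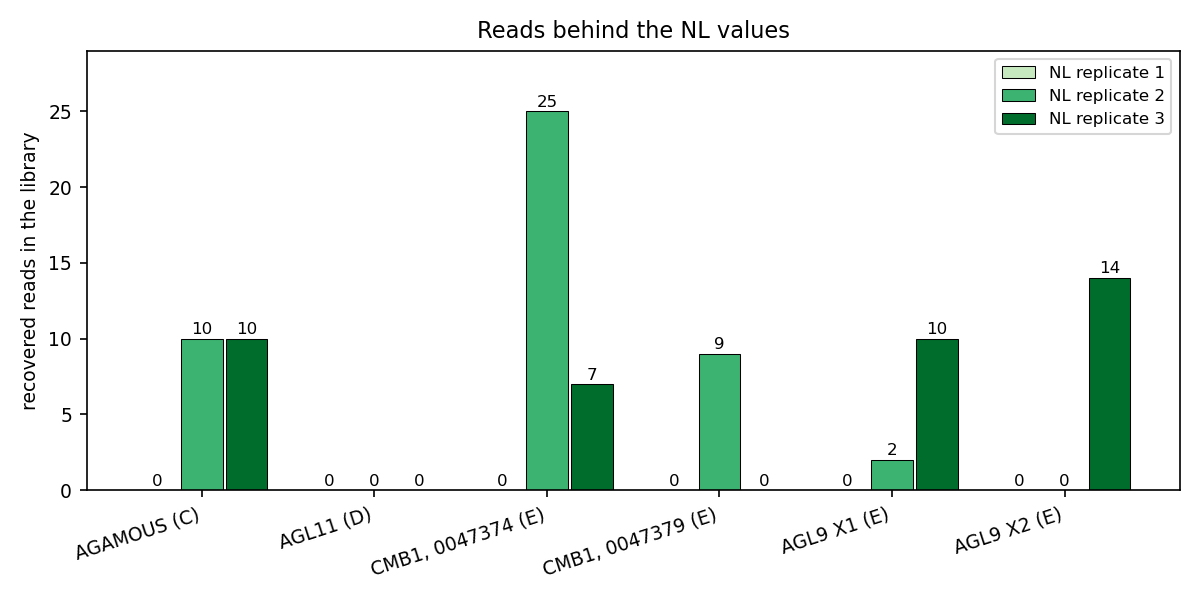
Number of reads on each of the 6 unigenes (organ class in brackets) in NL replicates 1, 2 and 3, as recovered from the deposited values, with the count above each bar. NL replicate 1 has 0 reads on every unigene, and the tallest bar is the 25 reads of Unigene0047374 in NL replicate 2.

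In order of mean RPKM in L2, Unigene0047374 (CMB1) came first and Unigene0027919 (AGAMOUS) second, 1.88-fold lower. Both were followed at a distance by Unigene0021927 (AGL9 isoform X1), Unigene0047379 (CMB1), Unigene0003257 (AGL11) and Unigene0023390 (AGL9 isoform X2). The first 2 differed from each other and from the rest in 3 of 3 L2 libraries, with ranges that did not overlap. The last 4 had overlapping ranges between neighbours. Within libraries, Unigene0023390 was nevertheless below Unigene0003257 and Unigene0021927 in 3 of 3, while Unigene0021927, Unigene0047379 and Unigene0003257 changed places between libraries. Among all listed genes, the mean L2 level of Unigene0047374 was at percentile 96.6 and that of Unigene0023390 at percentile 64.8.

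By class, the summed level of the 4 class E members was 155, 146 and 158 RPKM in L2 replicates 1, 2 and 3. With both SEPALLATA 1 unigenes of the table added, which also carry class E names, it was 271, 215 and 273 RPKM. The class C level was 44.5 to 74.8 RPKM. The ratio of the class E members to class C was 3.49, 2.90 and 2.11 in L2 replicates 1, 2 and 3, against 3.81 and 4.08 in NL replicates 2 and 3, where it rested on few reads. With the SEPALLATA 1 unigenes it was 6.09, 4.27 and 3.65 in L2 replicates 1, 2 and 3, against 4.54 and 5.71 in NL replicates 2 and 3. On either count it was lowest in L2 replicate 3, the library with the most AGAMOUS, and the L2 and NL ranges overlapped only with these unigenes added. The share of AGAMOUS in the summed level of the members was 21.3%, 23.7% and 29.4% in L2 replicates 1, 2 and 3. AGAMOUS was 4.92, 3.04 and 3.45 times as abundant as AGL11 in these libraries. With 3 libraries a stage and the members chosen on them, these ratios are given without a test.

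**Figure D3:**
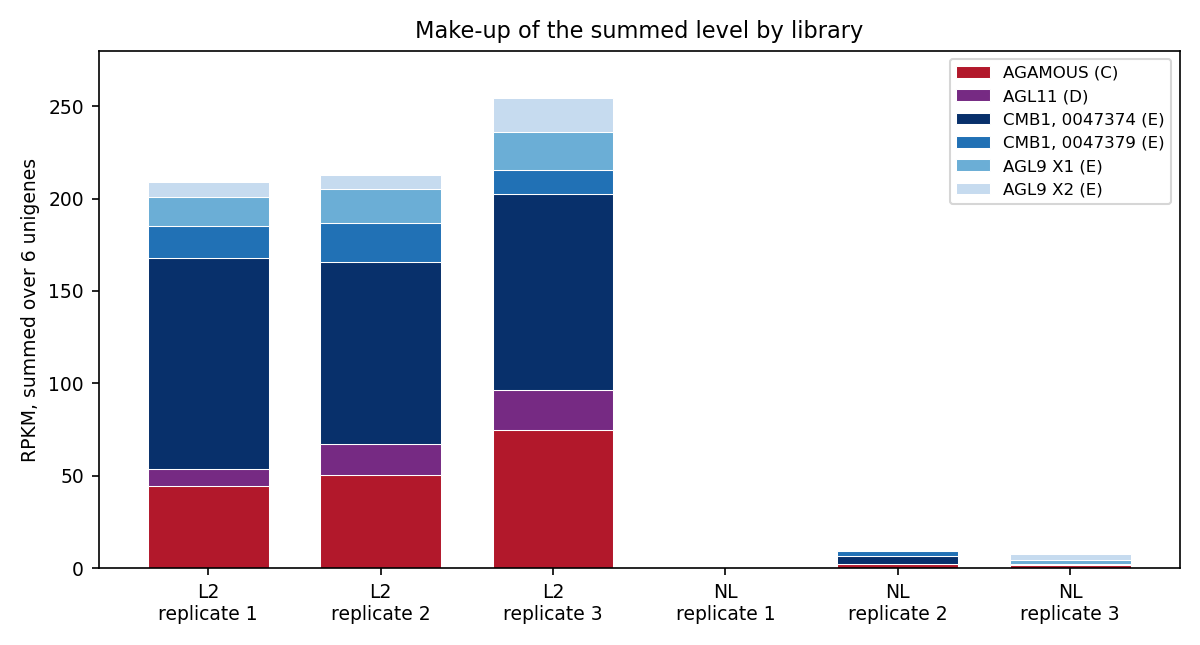
RPKM of the 6 unigenes stacked for each library, with AGAMOUS (class C) at the bottom, AGL11 (class D) above it and the 4 class E unigenes in blue. The stacks reach 209, 213 and 254 RPKM in L2 replicates 1, 2 and 3, against 0, 9.69 and 7.50 RPKM in NL replicates 1, 2 and 3, and Unigene0047374 is the largest block in L2.

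The table held 15 other MADS-box genes, of which 10 passed limma as higher and 5 as lower in L2, beside 63.0% and 36.3% of all listed genes. Their median log2 change was 3.80, against 1.43 over all listed genes. All 3 that carry other names of classes C and E were higher. Unigene0047380 (SEPALLATA 1 isoform X3, 534 nt), a further class E name, had 94.0, 47.8 and 77.4 RPKM in L2 replicates 1, 2 and 3 and no read in NL, and was at least 182-fold higher in L2 by summed reads, or 112-fold without NL replicate 3. Unigene0039666 (SEPALLATA 1 isoform X4) averaged 27.1 ± 9.51 RPKM in L2 and 1.39 ± 1.05 RPKM in NL (SD, n = 3 each). Its ratio of 19.5 became 30.6 without NL replicate 3. Unigene0022108 (AGAMOUS-like) was much less abundant than Unigene0027919, with 4.74 ± 0.159 RPKM in L2 and 0.200 ± 0.190 RPKM in NL (SD, n = 3 each). It had 3 reads in NL, which gives a ratio of 23.6 with a 95% exact interval from reads of 6.50 to 1522. The interval counts these reads as 1 molecule, though they lay in NL replicates 1 and 2, which raises its limits. Without NL replicate 1 that ratio was 42.6, on 1 NL read, with an interval of 4.34 to 1017. The deposited symbol of Unigene0022108 is PHE2, which names another MADS-box gene in Arabidopsis, so its class is uncertain.

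Class A genes, which in Arabidopsis set floral meristem identity and sepals, were listed with 6 unigenes, of which 5 were higher in L2. The largest level was that of Unigene0047375 (CAULIFLOWER A isoform X1), with 127, 125 and 138 RPKM in L2 replicates 1, 2 and 3, against 0, 7.17 and 1.55 RPKM in NL replicates 1, 2 and 3. This profile was close to that of the CMB1 unigene Unigene0047374, which also lacked reads in NL replicate 1 and had most of its NL reads in NL replicate 2. The level of Unigene0047374 was 0.905, 0.789 and 0.767 times that of Unigene0047375 in L2 replicates 1, 2 and 3, against 0.621 and 0.591 times in NL replicates 2 and 3. Without NL replicate 2 the ratio of L2 to NL of Unigene0047375 was 168 in place of 44.7. Unigene0047378 (CAULIFLOWER A isoform X1) averaged 63.8 ± 20.7 RPKM (SD, n = 3) in L2 and had no read in NL, at least 419-fold higher in L2 by summed reads, or 257-fold without NL replicate 3.

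Unigene0047377 (CAULIFLOWER A) averaged 56.6 ± 9.23 RPKM in L2 and 3.08 ± 1.33 RPKM in NL (SD, n = 3 each). Unigene0036514 (fruitful 1) averaged 20.2 ± 3.05 RPKM in L2 and 1.51 ± 0.812 RPKM in NL (SD, n = 3 each). Unigene0047376 (AGL8) averaged 3.80 ± 1.83 RPKM in L2 and 0.560 ± 0.534 RPKM in NL (SD, n = 3 each), and its ratio of 6.78 became 12.3 without NL replicate 3. It did not pass in edgeR with TMM factors, in DESeq2, without L2 replicate 3 or with a pseudocount of 0.01. The exception among the class A genes was Unigene0036513 (FRUITFULL-like, partial), with 1.18 ± 0.307 RPKM in L2 and 3.18 ± 0.663 RPKM in NL (SD, n = 3 each), which did not pass without NL replicate 2. The identifiers from Unigene0047374 to Unigene0047380 run without a gap over 7 MADS-box genes of classes A and E, all higher in L2. Whether they are separate genes or forms that share reads was not tested.

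No class B gene, the class that with class C specifies stamens and with class A petals, was found among the listed genes by its annotation. The table holds called genes only, so this does not show that class B genes were unchanged or absent.

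By annotation, 3 MADS-box genes belong to the control of flowering time, and all 3 passed limma as lower in L2, beside 36.3% of all listed genes. The deposited symbols group them differently. Unigene0037726, annotated as MADS-box transcription factor 23-like, carries the flowering time symbol SOC1 and was higher in L2. Unigene0053427, annotated as MADS transcriptional factor, carries the flowering time symbol AGL24 and was lower in L2. Unigene0039644 (JOINTLESS), close to the floral repressor SVP of Arabidopsis, had 9.52, 8.30 and 8.42 RPKM in L2 replicates 1, 2 and 3, against 59.3, 63.3 and 67.5 RPKM in NL replicates 1, 2 and 3. Its log2 change in limma was -2.84 (standard error 0.16). Unigene0027094 (AGL19) carries the deposited symbol SOC1, the name of a promoter of flowering in Arabidopsis. It averaged 6.15 ± 2.67 RPKM in L2 and 19.6 ± 3.16 RPKM in NL (SD, n = 3 each). Unigene0051570 is annotated as AGL24 but carries the deposited symbol SVP, and these names stand for a promoter and a repressor of flowering in Arabidopsis, so its role is uncertain. It had 8.59, 9.41 and 10.1 RPKM in L2 replicates 1, 2 and 3, against 19.4, 19.4 and 21.2 RPKM in NL replicates 1, 2 and 3. Of the remaining MADS-box genes, Unigene0037726 (MADS-box transcription factor 23-like) averaged 22.7 ± 6.90 RPKM in L2 and 0.776 ± 0.310 RPKM in NL (SD, n = 3 each). Unigene0025394 (AGL12) averaged 4.17 ± 1.13 RPKM in L2 and 0.871 ± 0.461 RPKM in NL (SD, n = 3 each), and was not called by edgeR with TMM factors or by DESeq2. Unigene0053427 (MADS transcriptional factor) averaged 1.51 ± 0.188 RPKM in L2 and 5.05 ± 0.680 RPKM in NL (SD, n = 3 each).

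**Figure D4:**
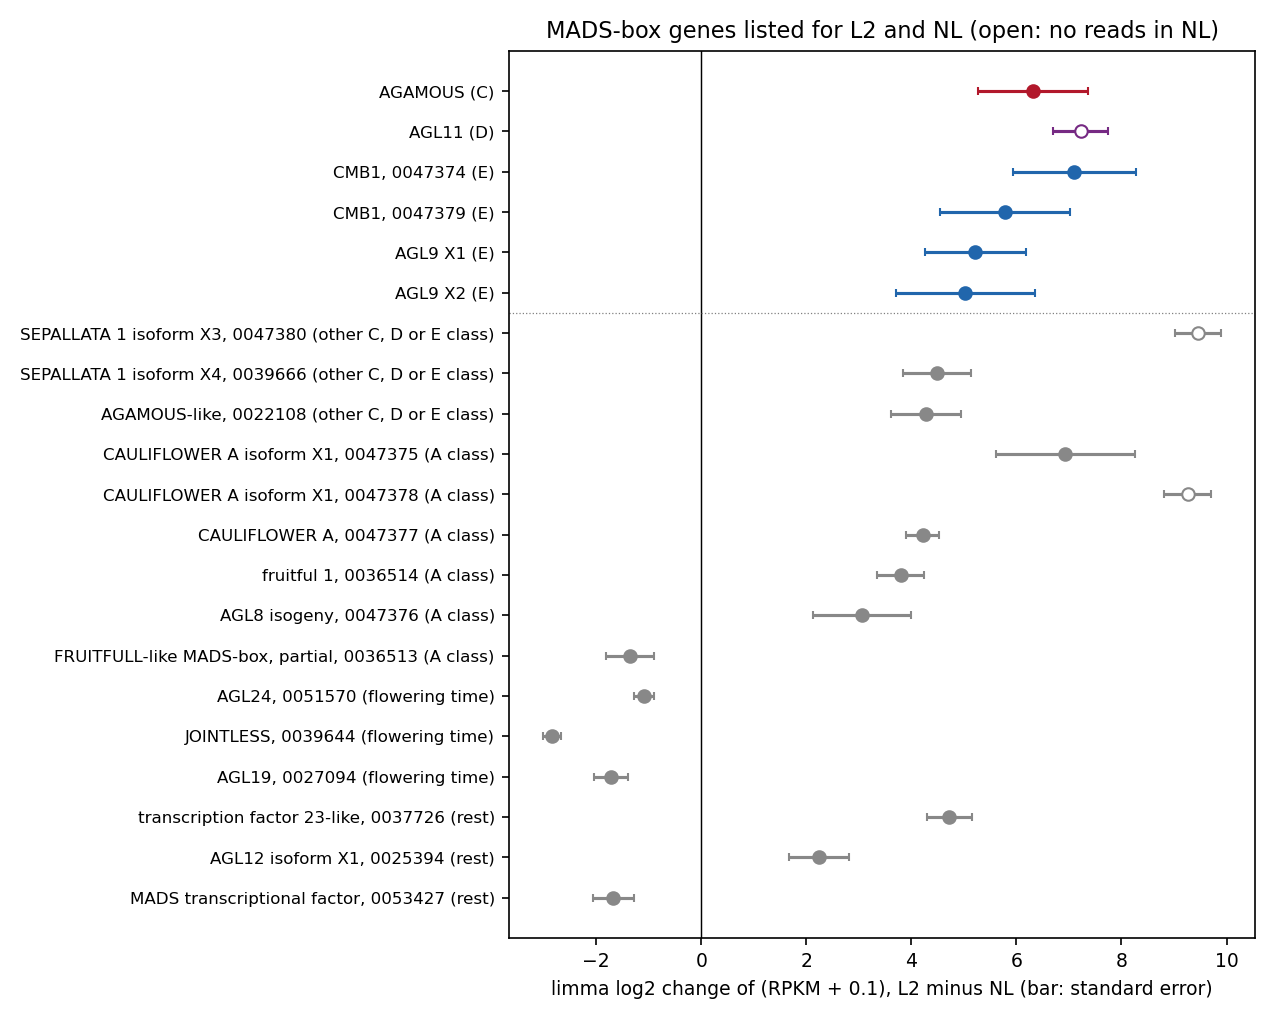
Log2 change in limma of (RPKM + 0.1), L2 minus NL, with bars of 1 standard error. The 6 members are coloured by class, and the 15 other MADS-box genes are grey with the group in brackets. Open circles mark genes without reads in NL. Their position depends on the pseudocount, and so does that of every member, as none had reads in NL replicate 1. For Unigene0047379 the change was 3.52 with a pseudocount of 1 and 8.01 with 0.01. The members lie between 5.03 and 7.22, and the 5 genes left of 0 include the 3 flowering time genes.

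Genes whose annotation matched names of regulators of the C, D and E genes, or of carpel, ovule or stamen formation, were read beside the members. The match was by words, so relatives of the named genes also entered. Among these were CLAVATA3/ESR-related proteins 12 and 41-like under CLAVATA, and BEL1-like homeodomain protein 3 under BELL1. Whether such relatives regulate the C, D and E genes is not known here. Of 18 regulator names 7 were found among the listed genes, and of 16 organ names 4. Of the 21 genes found, 16 passed limma as higher and 5 as lower in L2, beside 63.0% and 36.3% of all listed genes, with a median log2 change of 3.19, against 1.43 over all listed genes. Without NL replicate 1 the count of lower genes was 3. With edgeR and TMM factors 13 passed as higher, and with DESeq2 11. All 8 organ genes were higher. Unigene0029864 (MYB35), whose Arabidopsis relative acts in the anther tapetum, averaged 40.1 ± 26.1 RPKM in L2 and 0.816 ± 0.328 RPKM in NL (SD, n = 3 each). The deposited symbol of Unigene0029864 is MYB39, another MYB name, so its identity is uncertain. Unigene0024435 (YABBY2-like) averaged 11.0 ± 3.88 RPKM (SD, n = 3) in L2 without a read in NL, at least 40.0-fold higher, or 24.5-fold without NL replicate 3. YABBY proteins specify the outer face of lateral organs, and Unigene0033576 (YABBY 1) had 107 reads in L2 and 2 in NL, both in NL replicate 2. Unigene0019021 (CLAVATA3/ESR-related protein 12), a small signalling peptide, averaged 10.2 ± 0.542 RPKM (SD, n = 3) in L2 and was at least 37.8-fold higher there, or 23.2-fold without NL replicate 3, with no read in NL.

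Of the regulator list, Unigene0019791 (UNUSUAL FLORAL ORGANS), a partner of LEAFY in Arabidopsis, was lower in L2. It had 6 reads in L2, all in replicate 3, and 48 reads over the NL libraries. Unigene0031411 and Unigene0031122 (both BEL1-like homeodomain protein 3) averaged 45.2 ± 5.66 and 25.7 ± 3.10 RPKM in L2, and 152 ± 20.6 and 63.2 ± 9.64 RPKM in NL (SD, n = 3 each). The AINTEGUMENTA unigenes did not move together. Unigene0038795 averaged 1.97 ± 0.854 RPKM in L2 and 4.41 ± 1.06 RPKM in NL (SD, n = 3 each). The other AINTEGUMENTA unigenes, named after their values were seen, passed as higher. Unigene0008977 had 509 reads in L2 and 22 in NL, a ratio of mean RPKM of 17.7 that was 33.7 without NL replicate 1 and 10.3 without L2 replicate 3. Unigene0044573 had 199 reads in L2 and 20 in NL, a ratio of 7.66. Unigene0024655, the LEAFY homolog that stands upstream of AGAMOUS in Arabidopsis, was named after its values were seen and had 22 reads in L2 and none in NL.

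Markers of other tissues were read beside the members, and their counts stand beside 63.0% higher and 36.3% lower over all listed genes. Of 44 listed genes of the green stem (chlorophyll a-b binding proteins, photosystem proteins and the Rubisco small chain), 40 passed as lower and none as higher in L2, and their summed level was 1073 to 2331 RPKM in L2 and 6483 to 7953 RPKM in NL. All 5 listed genes named after the tapetum or pollen were higher, with a summed level of 203 to 250 RPKM in L2 and 71.6 to 88.5 RPKM in NL. Of the shoot meristem list 3 of 4 listed genes were higher. This list was matched by words, and the higher genes include CLAVATA3/ESR-related proteins 12 and 41-like, which may not mark the meristem. The lower gene was Unigene0036339 (CLAVATA1), with means of 2.92 RPKM in L2 and 5.99 RPKM in NL. Both listed genes of dividing cells were lower. The only listed gene of the carpel and ovule list was Unigene0036735 (SPATULA), with 224 reads in L2 and 6 in NL, all in NL replicate 1. The part of these tissues in the levels of the members was not tested.

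Outside the MADS-box family, the annotated genes with the most similar profile were sought by the root mean square difference of centred log2(RPKM + 0.1) over the 6 libraries, among 7665 genes with at least 30 reads in L2. For AGAMOUS they were Unigene0021534 (L-asparaginase, 0.52) and Unigene0041246 (UDP-glucuronic acid decarboxylase 4-like, 0.61). For AGL11 they were Unigene0027124 (tetraketide alpha-pyrone reductase 1, 0.23) and Unigene0003284 (proline-rich protein 4, 0.23), both without reads in NL. Tetraketide alpha-pyrone reductase 1 makes precursors of the pollen wall in Arabidopsis. For the CMB1 unigene Unigene0047374 they were Unigene0004494 (germin-like protein, 0.73) and Unigene0037681 (ECERIFERUM 1, 0.76), and for Unigene0047379 they were Unigene0030525 (core-2/I-branching enzyme, 0.32) and Unigene0043072 (Myb4, 0.33). For AGL9 isoform X1 they were Unigene0016808 (basic blue protein, 0.32) and Unigene0038791 (glucan endo-1,3-beta-glucosidase 13, 0.35), and for isoform X2 Unigene0064221 (retroelement pol polyprotein-like, 0.39) and Unigene0027457 (CASP-like protein 3A1, 0.47). The nearest MADS-box gene to Unigene0047374 was Unigene0047375 (CAULIFLOWER A isoform X1), at 0.26, closer than both genes named for it outside the family. Between pairs of members the difference was 0.69 to 2.95, smallest between AGAMOUS and Unigene0047374 and largest between Unigene0047379 and Unigene0023390. All these profiles share the 6 libraries and the step between L2 and NL, so the measure is a description.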

How the data were processed

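RNA of L2 and NL was analysed from the table of that comparison, with 3 libraries a stage. The authors assembled the reads with Trinity, mapped them to the unigenes with Bowtie2 and deposited RPKM values per library and mean RPKM values per stage. The authors also deposited the mean count of each stage, not normalized, which was read as an expected count because a mean of whole counts need not be whole. Multiplied by 3, all 22102 means were whole, as means of 3 whole counts would be. The tool for counting is not given in the sources used here. The deposited log2 ratio, p-value and FDR columns hold the authors' own comparison and were not used. Only genes past the authors' thresholds are listed (FDR no higher than 0.05, log2 ratio of 1 or more in either direction).

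The RPKM values and mean counts were used to work back to reads per library, totals and unigene lengths, and all 59302 values above 0 came out whole within 0.05 reads. They were used as whole counts. Totals were 5803177 to 7533457 reads in L2 and 3860701 to 5269237 reads in NL. Of values of 1 to 20 reads 66.9% were even, as where both ends of a fragment are counted, so intervals count 2 reads as 1 molecule. Odd sums of reads over a stage were rounded down to whole pairs, and a single read left in NL was counted as 1 molecule.

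Stages were compared with limma 3.58.1 (R 4.3.3) (trend option) on log2(RPKM + 0.1) in a two-sided test, and p-values were adjusted by Benjamini-Hochberg over 11051 genes. Alternatives were edgeR 4.0.16 (quasi-likelihood, TMM), DESeq2 1.42.0, upper quartile scaling, pseudocounts of 1 and 0.01, a minimum RPKM of 1 in 3 or more libraries, the library number as a block, and each library left out. The edgeR test with library totals was added after the data had been seen. The steps were tested on simulated data in which most genes were unchanged. That setting differs from this table of called genes, so it does not test TMM or DESeq2 scaling here. Members and lists were chosen with earlier results of these data known.

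Named genes were all members, every other MADS-box gene whose mean RPKM reached 1 in a stage, the 4 largest rises and 4 largest falls of the log2 ratio of mean RPKM among regulators and organ genes with at least 30 reads (genes without NL reads entered at the floor), and 2 nearest profiles for each member. Unigenes annotated as fruitful or CAULIFLOWER matched the words of the grouping rule only, and were added to the MADS-box genes after the table had been seen. Python 3.11.15 was used for the remaining steps. No sequences of the unigenes were used here.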

Additional observations from a re-analysis of the deposited data

How the results depend on the processing

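All 6 members stayed higher in L2 under all 14 alternatives, and 6 of 6 passed in all but DESeq2, where 4 of 6 did. The members were chosen with their values known, and no L2 library overlapped an NL library. Leaving out a library or changing the pseudocount could therefore not reverse their direction. Their log2 changes ranged from 2.17 (Unigene0023390, DESeq2) to 10.53 (Unigene0003257, which has no reads in NL, with a pseudocount of 0.01). The TMM factors exceeded scaling by library totals by 0.85 on the log2 scale (L2 minus NL), DESeq2's factors by 1.08 and upper quartiles by 0.50. All were computed from the listed genes alone, which were all called in this contrast. TMM and DESeq2 scaling take most genes as unchanged, which does not hold for such a list, so the results with these factors are a weak check. With edgeR the log2 change of Unigene0027919 was 5.61 with library totals and 4.74 with TMM factors, and that of Unigene0003257 was 9.53 and 9.21, so the shift was smaller for a gene without reads in NL. Over all listed genes 38.6% passed as higher with TMM factors and 25.2% with DESeq2. The other MADS-box genes kept their direction in all 210 values, and 7 of these did not pass. With each library left out, 9 to 10 of them passed as higher and 4 to 5 as lower. Of the regulators and organ genes, 16 passed as higher with each library left out, but 13 with edgeR and TMM factors, 11 with DESeq2 and 13 of 18 after the minimum RPKM. With each library left out 3 to 5 of them passed as lower. The lowest count, 3, came without NL replicate 1, and the cause was not tested. With the replicate block 6 members, 10 higher and 5 lower MADS-box genes, and 16 higher and 4 lower regulators and organ genes passed. The labels give no numbers that pair the libraries, and deviations from the stage mean correlated by 0.04, 0.02 and 0.06 between libraries of the same number, each NL library correlating best with its own number. Unigene0003257 had no NL reads and the other members 9 to 32. Leaving out 1 NL library took the ratios of Unigene0047374 (233), Unigene0021927 (73.0) and Unigene0023390 (at least 25.0) outside their counting intervals. In each case it was the library with most NL reads of the gene, so this is no test against counting error. For Unigene0021927 the interval without that library, 13.8 to 3099, overlapped the interval from all libraries, 9.54 to 58.5.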

Other observations

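In the deposited GO columns 5 of 6 members carried terms, and Unigene0027919 (AGAMOUS) carried none. A term for transcription factor activity was given for 3 members (AGL11 and both AGL9 unigenes), and a term on reproduction for 4. Both AGL9 unigenes also carried the term oxidoreductase activity.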
